A study of Mus musculus with 8 samples.

Results

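Nes, Zic1, Dlx5, Tubb3, Pax6, Sox1, Neurog2, Olig2 and Pou3f2 are genes by which cells of the neural lineage are commonly recognised. They were taken by symbol from a RefSeq gene table of the mouse assembly GRCm38.p6 (mm10), where they are 9 of 21887 protein-coding genes on placed chromosomes, and every deposited open-chromatin region within each gene body and 50 kb on each side of it was collected. ATAC-seq, which marks open chromatin by the places where a transposase can insert adapters, had been run on 8 samples of mouse embryonic stem cells that form 4 groups of 2 replicates. Ubc9-depleted cells are v6.5 cells with a TET-OFF construct, treated with doxycycline (72 hours), which shuts off the gene of the SUMO-conjugating enzyme Ubc9. The Ubc9-control cells are of the same line and are described as isogenic. The labels give the drug for the depletion only, so the drug and the loss of Ubc9 cannot be told apart. Whether the Ubc9-control cells carry the TET-OFF construct is not given in the labels. H1 triple-KO cells (H1.2-/-H1.3-/-H1.4-/-) lack 3 of the linker histones that bind between nucleosomes, and the H1 WT cells are their control. Both lines of the H1 pair came from a published source, and the number of clones is not given in the labels. All 4 groups were grown for 4 passages in 2i/LIF, a medium that holds embryonic stem cells in the naive state.

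In the embryo the neural lineage starts when ectoderm switches on SOX and paired-box factors, which mark and maintain neural progenitors. Proneural factors of the basic helix-loop-helix type then drive progenitors out of division and towards neurons, and filament and tubulin genes characteristic of the progenitor and of the neuron follow. Embryonic stem cells do not use most of these genes, and many of them are known in such cells for promoters that are rich in CpG and held by Polycomb proteins.

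Each group has 1 deposited list of regions, made from both of its replicates, so the spread between replicates is not known and no difference below was tested. A region was called shared when it overlapped a region of the other list of its pair by at least 1 bp, and unshared otherwise. The lists held 48730 regions for Ubc9-depleted and 46847 for Ubc9-control cells, and 58039 for H1 triple-KO and 55489 for H1 WT cells. The score of a region is the authors' own. It was taken for the peak caller's log10-scaled p-value, for which larger means a smaller p, since the lowest values lie at about 50. Around these genes, scores of the Ubc9 lists carry more decimals (such as 54.4625) than those of the H1 lists (such as 105.21). The scores of the Ubc9 and H1 lists may therefore not be the same quantity, and how they were made is not given. It is used here to describe regions and to rank them within 1 list. Where scores of different lists stand side by side, they were not shown to be on 1 scale, so a difference in size between them is not a result. How deeply the libraries were sequenced is unknown, and a region missing from a list may have fallen just under the caller's threshold. Gene ends are windows that reach 1000 bp to either side of the first and the last annotated base of a gene. Of 10 stem cell markers, 7 had a region at a gene end in Ubc9-depleted and 8 in Ubc9-control cells, and 8 did in both H1 lists. Of 10 fibroblast markers, which would show feeder cells, 2 had one in Ubc9-depleted, 1 in Ubc9-control, 1 in H1 triple-KO and 2 in H1 WT cells. Of 8 primitive endoderm markers 3 had one in Ubc9-depleted, 4 in Ubc9-control, 4 in H1 triple-KO and 3 in H1 WT cells. The part of other cells in the results below was not tested.

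The starts of these genes carry the differences described first, so the sequences of 5 of them are shown here as RefSeq gives them for GRCm38.p6, each running from 250 bases before to 50 bases after the start, 5′ to 3′ on the strand of the gene. Capitals mark the bases that lie inside a deposited region of the list named on the line. Nes (chr3:87970843-87971142, plus strand) and Zic1 (chr9:91365719-91366018, minus strand) had a region there in the Ubc9-depleted and the H1 triple-KO list and in neither control list. Tubb3 (chr8:123411303-123411602, plus strand) had one in the Ubc9-depleted and the H1 WT list. Olig2 (chr16:91225300-91225599, plus strand) had one in both H1 lists and in neither Ubc9 list, and Sox1 (chr8:12395269-12395568, plus strand) is shown as a gene with a region at its start in all 4 lists.
Nes, Ubc9-depleted list: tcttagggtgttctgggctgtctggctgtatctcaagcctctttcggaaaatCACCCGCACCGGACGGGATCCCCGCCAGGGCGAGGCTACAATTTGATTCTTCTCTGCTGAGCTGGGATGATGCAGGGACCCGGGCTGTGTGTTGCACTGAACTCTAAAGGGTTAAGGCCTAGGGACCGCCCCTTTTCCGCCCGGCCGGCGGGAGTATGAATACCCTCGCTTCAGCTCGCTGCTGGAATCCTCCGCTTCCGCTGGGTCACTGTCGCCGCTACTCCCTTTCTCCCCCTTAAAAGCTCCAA
Zic1, Ubc9-depleted list: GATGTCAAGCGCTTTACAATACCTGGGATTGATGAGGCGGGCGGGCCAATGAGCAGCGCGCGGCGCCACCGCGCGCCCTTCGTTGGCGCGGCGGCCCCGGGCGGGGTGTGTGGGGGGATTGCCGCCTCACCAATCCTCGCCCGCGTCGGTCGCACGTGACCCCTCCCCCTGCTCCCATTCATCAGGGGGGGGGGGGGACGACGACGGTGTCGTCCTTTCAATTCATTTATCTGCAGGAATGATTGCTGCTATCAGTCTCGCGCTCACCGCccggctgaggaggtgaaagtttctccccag
Tubb3, H1 WT list: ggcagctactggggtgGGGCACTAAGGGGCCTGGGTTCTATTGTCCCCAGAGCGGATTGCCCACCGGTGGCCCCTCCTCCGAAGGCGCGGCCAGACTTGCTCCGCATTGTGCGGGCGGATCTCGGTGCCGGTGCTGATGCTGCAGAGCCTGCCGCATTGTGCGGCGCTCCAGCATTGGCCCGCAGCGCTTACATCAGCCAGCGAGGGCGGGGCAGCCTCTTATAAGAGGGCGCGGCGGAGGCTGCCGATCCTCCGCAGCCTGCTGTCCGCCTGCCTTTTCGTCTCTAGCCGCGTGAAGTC
Olig2, H1 triple-KO list: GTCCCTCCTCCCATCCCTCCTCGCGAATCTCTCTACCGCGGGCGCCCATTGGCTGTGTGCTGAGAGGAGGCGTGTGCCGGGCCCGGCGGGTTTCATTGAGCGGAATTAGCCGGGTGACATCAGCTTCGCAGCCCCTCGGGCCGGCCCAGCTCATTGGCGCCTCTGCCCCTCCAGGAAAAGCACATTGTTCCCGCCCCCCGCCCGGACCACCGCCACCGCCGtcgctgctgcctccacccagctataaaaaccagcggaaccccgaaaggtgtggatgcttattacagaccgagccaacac
Sox1, Ubc9-depleted list: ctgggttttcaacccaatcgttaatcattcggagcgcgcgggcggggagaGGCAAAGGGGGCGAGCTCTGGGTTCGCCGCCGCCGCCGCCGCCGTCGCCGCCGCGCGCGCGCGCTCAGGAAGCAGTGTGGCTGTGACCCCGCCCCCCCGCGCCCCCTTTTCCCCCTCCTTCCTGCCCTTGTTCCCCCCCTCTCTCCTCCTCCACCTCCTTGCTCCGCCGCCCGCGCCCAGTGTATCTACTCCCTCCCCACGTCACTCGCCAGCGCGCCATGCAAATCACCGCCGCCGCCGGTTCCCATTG

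Promoter sequences were matched for 8 of the 9 genes, with 9 entries in all because Pax6 has a second start inside the gene, and Dlx5 is not among them. The number of CpG dinucleotides in the 300 bases was 37 for Sox1, 31 for Zic1, 26 for Tubb3, 25 for Olig2, 24 for Pou3f2, 18 for Nes, 18 and 16 for the entries of Pax6 and 10 for Neurog2, against a median of 13 over 21263 promoters of 17492 genes. All of these genes except Neurog2 thus stood above that median, both those with a region at the start in every list and those with none. The entry of Neurog2 begins inside the annotated gene, so it does not show the sequence at the gene's first base. Short motifs were searched on both strands. The GC box GGGCGG, the site of SP factors, was present in 7 of the 9 entries and in 46.2% of all promoters. The core ACAAT, which SOX factors bind, was present in 6 of the 9 and in 27.7% of all promoters, with 3 matches in Tubb3. The octamer ATGCAAAT, which POU factors such as Oct4 bind, occurred in 1 entry, that of Sox1, and in 1.66% of all promoters, and CAGCACC, part of the site of the neuronal repressor REST, occurred in 1 entry, that of Tubb3, and in 7.24%. The E-box CANNTG, the general site of basic helix-loop-helix factors, was in 2 of the 9 entries and in 69.0% of all promoters. Its proneural form CAGCTG, which CANNTG includes, was in 0 of the 9 and in 15.6%. A match is a run of letters and was not shown to be a bound site.

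At the gene ends, 6 of the 9 genes had a region in Ubc9-depleted and 4 in Ubc9-control cells. Nes and Zic1 had one in Ubc9-depleted cells only, and 0 of the 9 had one in Ubc9-control cells only. Over all protein-coding genes, 5.29% had a gene-end region in Ubc9-depleted cells only and 4.02% in Ubc9-control cells only. Between the H1 lists, 7 of the 9 genes had a gene-end region in H1 triple-KO and 5 in H1 WT cells. Nes, Zic1 and Dlx5 had one in H1 triple-KO cells only and Tubb3 in H1 WT cells only, where 4.45% of all protein-coding genes had one in H1 triple-KO cells only and 4.78% in H1 WT cells only. The genes were chosen with these differences at Nes, Zic1, Dlx5 and Tubb3 already known, so the counts over the 9 are a description. Among the other 5 genes 0 had a gene-end region in 1 list only of either pair.

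Counted at the start alone, where a strand is known for 8 of the 9 genes, 3 (Nes, Zic1 and Tubb3) had a region in Ubc9-depleted cells only and 0 in Ubc9-control cells only. Over 17492 genes, 4.88% had one in Ubc9-depleted cells only and 3.49% in Ubc9-control cells only. Between H1 triple-KO and H1 WT cells, 2 (Nes and Zic1) had a region at the start in H1 triple-KO only and 1 (Tubb3) in H1 WT only, where 3.7% of all genes had one in H1 triple-KO only and 4.38% in H1 WT only. Tubb3 differs between these counts in the Ubc9 pair because a shared region lies at its other end. The plot of the gene starts shows each of these regions with its score.

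**Figure D1:**
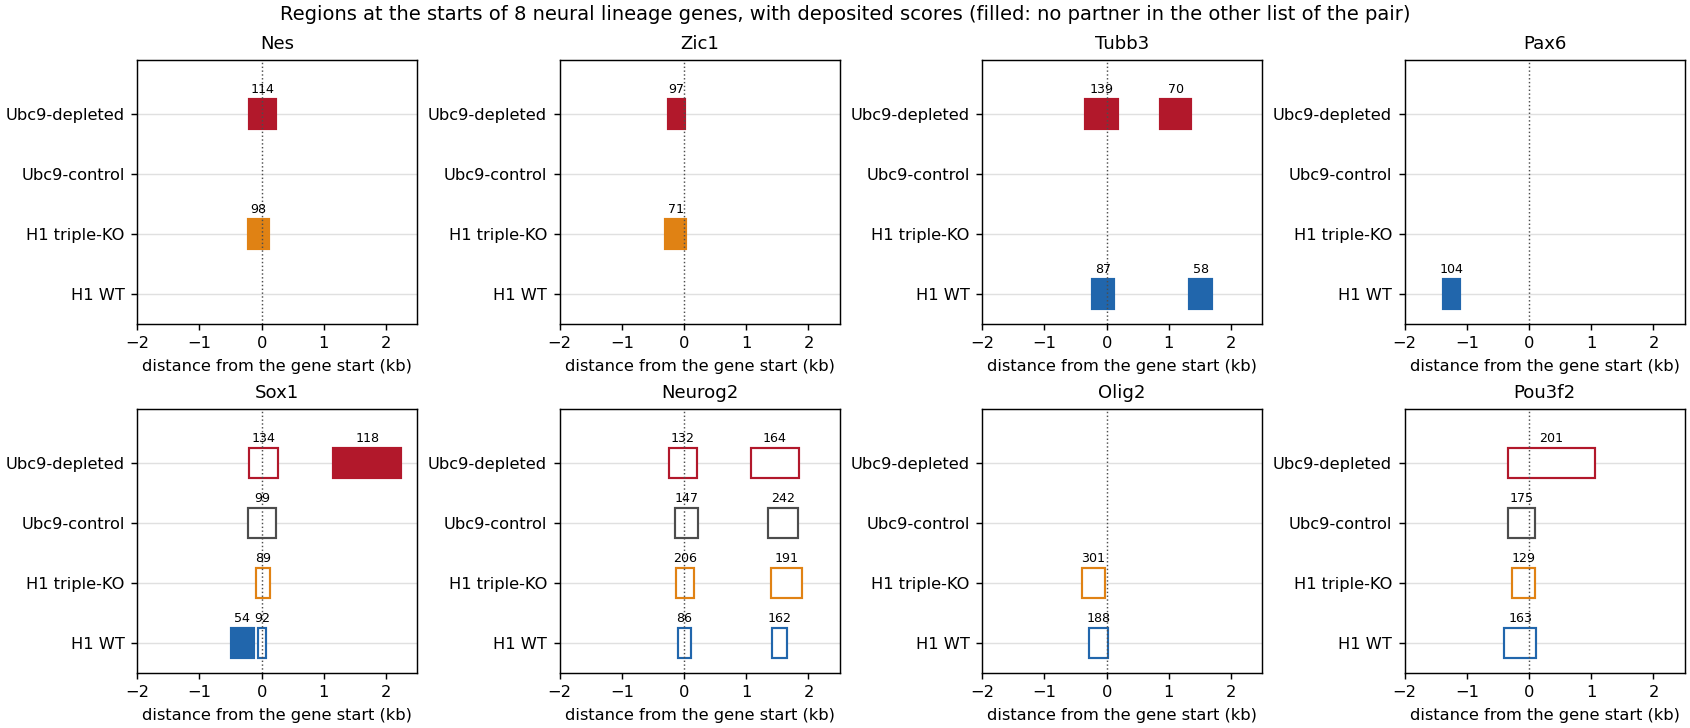
Deposited regions within 2 kb before and 2.5 kb after the start of 8 neural lineage genes, 1 row per list, with the distance from the gene start in kb on the horizontal axis and the deposited score written above each region. Filled boxes have no partner in the other list of the pair and open boxes have one. Nes and Zic1 have boxes in the Ubc9-depleted and H1 triple-KO rows only, Tubb3 in the Ubc9-depleted and H1 WT rows, and Sox1, Neurog2 and Pou3f2 in all 4.

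Sox1 (chr8:12395519-12399555) encodes a SOX factor that is among the first marks of neuroectoderm. The region over its start scored 134.5 in Ubc9-depleted and 98.7 in Ubc9-control cells, and 88.7 in H1 triple-KO and 91.6 in H1 WT cells. Its start was thus marked in every list, and 43.0% of all protein-coding genes had a gene-end region in all 4. The H1 WT list held a second region just before it, at -495 to -125 bp from the start with a score of 53.8, which had a partner within 500 bp and counts as unshared by the overlap rule alone. In Ubc9-depleted cells a region of 1091 bp at 1153 to 2243 bp after the start, inside the gene and inside the overlapping transcript Sox1ot, scored 117.6, and none of the other 3 lists had a region there. Ubc9-control cells had 2 unshared regions, at 25100 to 25330 bp (score 76.7) and at 36146 to 36564 bp (119.5). Both of these had partners in H1 lists, the nearer one in H1 WT cells (70.1) and the farther in H1 triple-KO (69.4) and H1 WT cells (103.8). The other unshared regions were 1 in H1 triple-KO cells, at 33019 to 33282 bp (66.6), and 1 in H1 WT cells, at -3805 to -3622 bp (63.3). A site beyond the gene, at 43502 to 43990 bp, was in all 4 lists and held the highest score around Sox1 in each of them.

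Pax6 (chr2:105668896-105698410) encodes a paired-box factor of the forebrain, the eye and the neural tube. None of the 4 lists had a region at its gene ends, which was the state of 37.8% of all genes. Ubc9-depleted cells had 0 regions in the gene and 50 kb on each side, against 3 in Ubc9-control cells, all inside the gene. These 3 lay at 6252 to 6914 bp after the start (score 106.5), at 8417 to 9203 bp (78.7) and at 22361 to 22726 bp (141.8), and each had a partner in an H1 list. Pax6 was singled out here after its values were seen: of 14886 genes with at least 3 regions in Ubc9-control cells, 63 (0.423%) had 0 in Ubc9-depleted cells. In the 10 Mb around Pax6 the Ubc9-depleted list had 51 unshared regions and the Ubc9-control list 108, a ratio of 0.472, so the surrounding regions leaned the same way. In the H1 pair, H1 triple-KO cells had 3 regions and H1 WT cells 6. The highest unshared one in H1 triple-KO cells lay at 6258 to 6945 bp after the start and scored 259.6, above 79.7% of that list. In H1 WT cells the highest unshared regions were at 22370 to 22682 bp (172.4) and 8474 to 8807 bp (124.0, with a partner within 500 bp), and one at -1380 to -1112 bp (104.5), in the antisense transcript Pax6os1, fell just outside the window at the start.

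Zic1 (chr9:91358058-91365768, minus strand) encodes a zinc-finger factor of the dorsal neural tube and cerebellum. In Ubc9-depleted cells the region over its start, chr9:91365749-91366034, scored 97.4, above 32.5% of that list, and Ubc9-control cells had none. In H1 triple-KO cells it was chr9:91365737-91366072 with a score of 71.0, above 11.7% of that list, and H1 WT cells had none. The same region covers the start of Zic4, the neighbour on the other strand, so it cannot be assigned to 1 of the genes. Ubc9-depleted and Ubc9-control cells each had 3 regions around Zic1 and 0 of them were shared. The other unshared ones in Ubc9-depleted cells scored 107.9 and 90.3, and those in Ubc9-control cells 118.3, 93.2 and 66.9. The site with 118.3, inside Zic4, was in both H1 lists too, with 234.7 in H1 triple-KO and 168.3 in H1 WT cells. The highest unshared regions of the H1 lists were at -21440 to -21101 bp in H1 triple-KO cells (122.3) and at -48543 to -48290 bp in H1 WT cells (129.1). H1 WT cells also had an unshared region inside Zic1, at 3649 to 3949 bp (87.4), where the other 3 lists had none.

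Dlx5 (chr6:6877801-6882068) encodes a homeobox factor of the forebrain's inhibitory neurons and of the skeleton, and its strand was not taken from the tables used. H1 triple-KO cells had a region at each end of the gene, chr6:6878540-6878797 (score 77.6) and chr6:6881854-6882236 (103.9), and the other 3 lists had none at either end. Both scores lay low in the H1 triple-KO list, above 16.2% and 32.8% of it. The neighbouring Dlx6 had a region at its end in all 4 lists, with top scores of 144.1 in Ubc9-depleted, 113.0 in Ubc9-control, 171.4 in H1 triple-KO and 185.3 in H1 WT cells. Between the Dlx genes, a region at chr6:6874102-6874382 scored 61.1 in Ubc9-control cells and its counterpart 80.3 in H1 WT cells, with none in Ubc9-depleted or H1 triple-KO cells. The other unshared region in Ubc9-control cells, in the transcript Dlx6os1, scored 63.3.

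Neurog2 (chr3:127632733-127635636) encodes a proneural factor that starts neuron formation. It had the same 4 sites in all 4 lists, at its start, inside the gene, before it and after it. The start region scored 131.9 in Ubc9-depleted and 147.3 in Ubc9-control cells, and 206.5 in H1 triple-KO and 86.4 in H1 WT cells. Neurog2 was the member with 0 unshared regions in either list of the Ubc9 pair, where 12.5% of all genes had none. In the H1 pair 2 regions were unshared, both in H1 triple-KO cells and both inside the neighbour Zgrf1, with scores of 84.7 and 77.0.

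Olig2 (chr16:91225550-91228677) encodes a basic helix-loop-helix factor of motor neuron and oligodendrocyte progenitors. The region at its start scored 300.5 in H1 triple-KO cells, above 84.6% of that list, and 187.7 in H1 WT cells, above 68.2% of that list, while neither Ubc9 list had one. This state, both H1 lists and neither Ubc9 list, was that of 258 genes (1.18%). The cell lines of the 2 pairs differ, and this contrast between pairs was not tested. At Olig1, the related gene next to it, a region at the gene end was in all 4 lists, with 288.2 in Ubc9-depleted, 196.1 in Ubc9-control, 311.0 in H1 triple-KO and 209.0 in H1 WT cells. Ubc9-depleted cells had 0 unshared regions around Olig2 and Ubc9-control cells 1 (68.2, at -29129 to -28686 bp). H1 triple-KO cells had 2 unshared regions (155.3 and 87.0) and H1 WT cells 2 (123.2 and 58.6).

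Pou3f2 (chr4:22482095-22488366, minus strand), also called Brn2, encodes a POU factor of neural progenitors and cortical neurons. The region over its start scored 200.6 in Ubc9-depleted and 175.3 in Ubc9-control cells, and 128.9 in H1 triple-KO and 163.4 in H1 WT cells. It spanned 1392 bp in Ubc9-depleted and 437 bp in Ubc9-control cells, and it reached 1055 bp into the gene in Ubc9-depleted and 99 bp in Ubc9-control cells. Regions of the whole list were also wider in Ubc9-depleted (median 431 bp) than in Ubc9-control cells (367 bp). Ubc9-depleted cells had 2 unshared regions, at -39274 to -38874 bp (223.9) and at 24793 to 25128 bp (125.6). The first had the highest score of the 11 unshared Ubc9-depleted regions around the 9 genes, above 74.8% of its list. Ubc9-control cells had 2 as well, of which that at 8739 to 9354 bp (158.8) was the highest-scoring unshared Ubc9-control region around the 9 genes and had partners in H1 triple-KO (201.1) and H1 WT cells (138.5). The other lay at 48360 to 48604 bp (66.9). Each H1 list had 1 unshared region, with 80.0 in H1 triple-KO and 93.9 in H1 WT cells.

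Nes (chr3:87971093-87980451) encodes nestin, an intermediate filament protein of neural progenitors. The region over its start was chr3:87970895-87971318 in Ubc9-depleted cells, from -198 to 225 bp, with a score of 113.7, above 42.6% of that list, and Ubc9-control cells had none. In H1 triple-KO cells it was chr3:87970881-87971213, from -212 to 120 bp, with a score of 97.5, above 29.1% of that list, and H1 WT cells had none. The state of Nes and Zic1 at their gene ends, a region in Ubc9-depleted and H1 triple-KO cells and none in either control, was that of 148 genes (0.676%). Inside the gene, a site between 3109 and 3944 bp after the start was in all 4 lists, with 225.8 in Ubc9-depleted, 149.2 in Ubc9-control, 279.0 in H1 triple-KO and 191.4 in H1 WT cells. A site at -10276 to -9908 bp was in all 4 lists too, and its score of 508.0 in H1 triple-KO cells was the highest around the 9 genes in that list. These neighbouring sites were thus in every list, while the start was in the lists of the perturbed cells only. H1 triple-KO cells had 4 unshared regions around Nes and H1 WT cells 0, an excess that 95.5% of all genes fell below. The highest of the 4 were at -18610 to -18430 bp, at an end of Crabp2 (138.3), and at -35222 to -35012 bp, in Isg20l2 (137.4). In the Ubc9 pair the other unshared regions were 1 in Ubc9-depleted cells, in Bcan (101.0), and 1 in Ubc9-control cells, at Crabp2 (108.2).

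Tubb3 (chr8:123411553-123422015) encodes the beta-tubulin of neurons. At its start Ubc9-depleted cells had a region at -344 to 182 bp with a score of 139.4, above 54.4% of that list, and a second at 855 to 1363 bp (69.6), where Ubc9-control cells had neither. H1 triple-KO cells had neither as well, while H1 WT cells had a region at -234 to 116 bp with 87.4, above 25.2% of that list, and a second at 1331 to 1701 bp (58.1). The regions at -344 to 182 bp and at -234 to 116 bp also lie at a gene end of Mc1r. They therefore cannot be assigned to 1 of the genes. The start of Tubb3 held regions in the perturbed list of the Ubc9 pair and in the control list of the H1 pair. At the other end of the gene a region scored 98.6 in Ubc9-depleted and 95.1 in Ubc9-control cells and 139.5 in H1 WT cells, with none in H1 triple-KO cells. H1 triple-KO cells had 0 unshared regions around Tubb3 and H1 WT cells 4, a difference lower than that of 96.8% of all genes. Of the 10 fibroblast markers, Twist1 was the 1 with a gene-end region in 1 list only of a pair. It had one in Ubc9-depleted (79.2) and H1 WT cells (60.8) and in neither other list, like the start of Tubb3. Most of the 10 had none: 2 had one in Ubc9-depleted, 1 in Ubc9-control, 1 in H1 triple-KO and 2 in H1 WT cells. A part of such cells in the result was not tested. Ubc9-control cells had 1 unshared region around Tubb3, in Def8 (84.4). The 4 unshared H1 WT regions include a second piece at Tcf25 (114.8) with a partner within 500 bp.

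**Figure D2:**
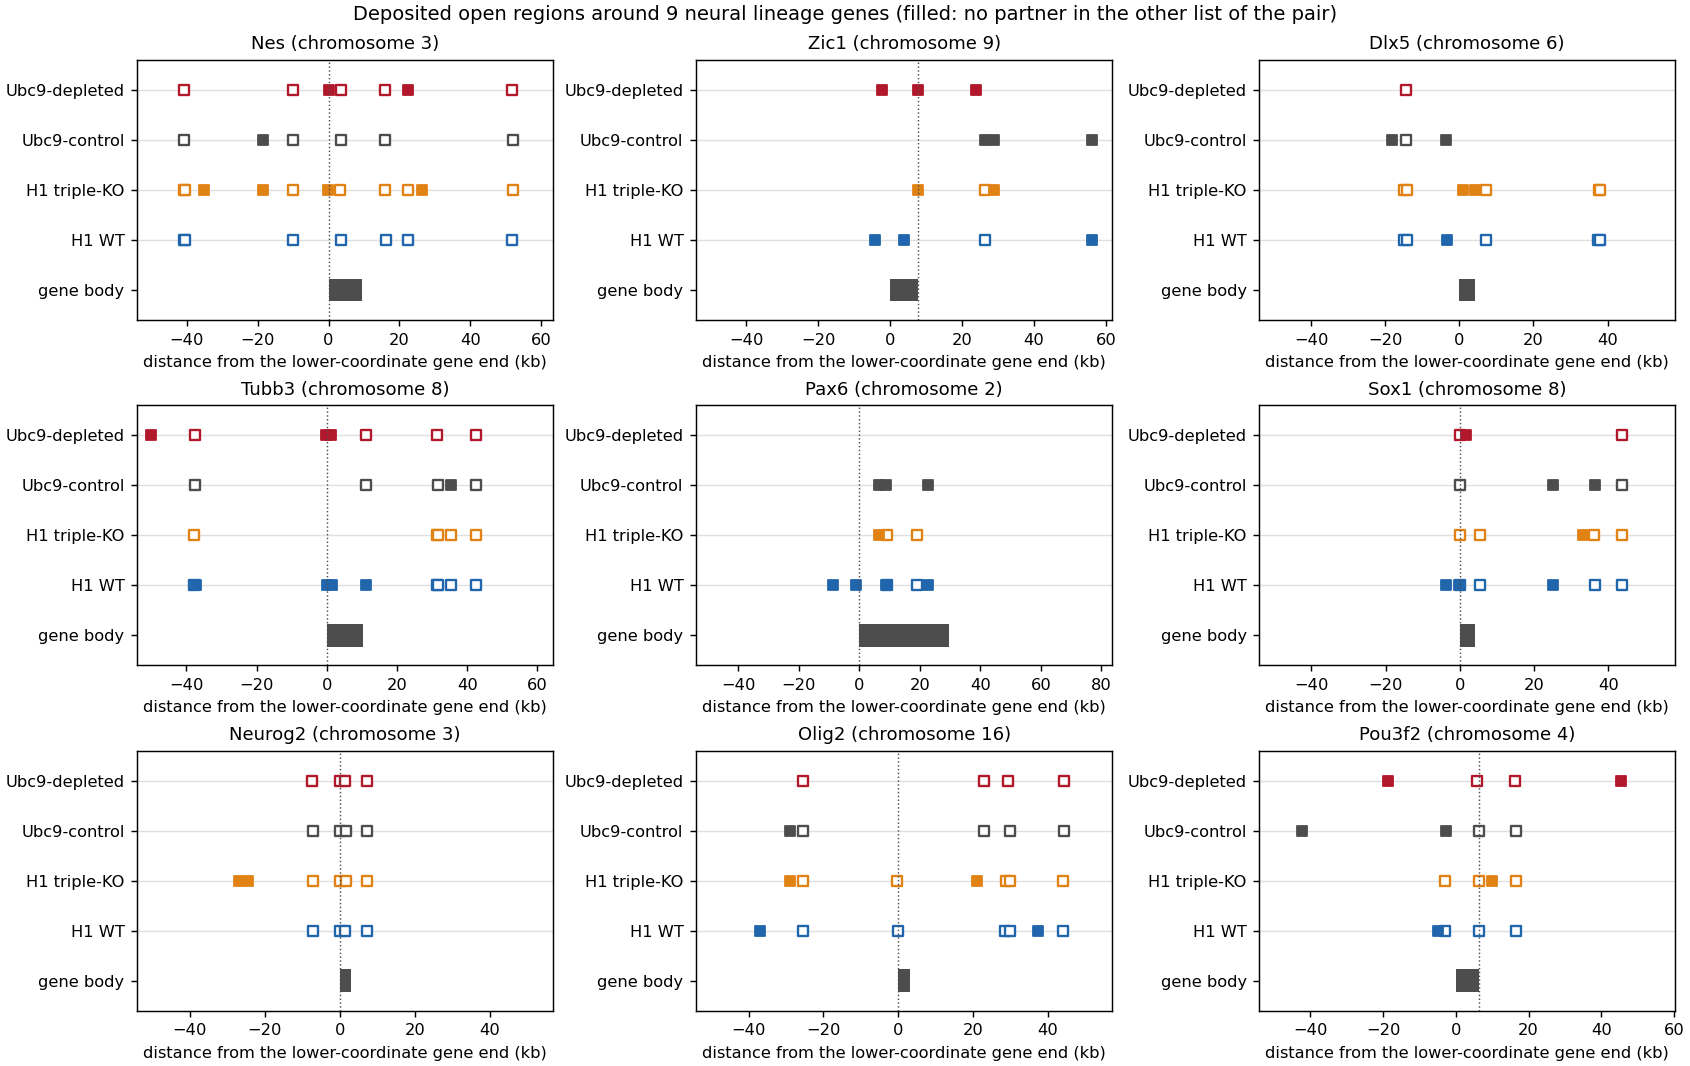
All deposited regions within the gene body and 50 kb on each side of the 9 genes, 1 row per list, as distance in kb from the lower-coordinate end of the gene. Filled squares are unshared within the pair, open squares shared, the grey bar is the gene body, and the dotted line is the gene start where the strand is known. Pax6 has no square in the Ubc9-depleted row against 3 in the Ubc9-control row, and Neurog2 has the same 4 open squares in every row.

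Over all 9 genes, 11 of 33 Ubc9-depleted regions were unshared, or 33.3% (exact 95% binomial interval 18.0 to 51.8%), against 45.6% of the whole Ubc9-depleted list. Of 37 Ubc9-control regions 15 were unshared, or 40.5% (24.8 to 57.9%), against 43.3% of the whole list. Of 51 H1 triple-KO regions 15 were unshared, or 29.4% (17.5 to 43.8%), against 31.4% of the whole list. Of 54 H1 WT regions 18 were unshared, or 33.3% (21.1 to 47.5%), against 28.8% of the whole list. Each interval covers the share of its whole list. Regions around the same gene are not independent of each other, and some of the genes were chosen with their differences already known. Whether the regions around these genes depart from the background was thus not tested, and the shares are a description. The intervals are Clopper-Pearson intervals and cover counting error only.

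The median unshared region around the 9 genes scored above 39.2% of the list in Ubc9-depleted and 21.5% in Ubc9-control cells, and above 27.9% in H1 triple-KO and 27.4% in H1 WT cells. Over all unshared regions of each list the median scored above 37.8% in Ubc9-depleted, 30.6% in Ubc9-control, 26.4% in H1 triple-KO and 27.0% in H1 WT cells. The highest unshared region around the 9 genes scored above 74.8% of the list in Ubc9-depleted, 63.0% in Ubc9-control, 79.7% in H1 triple-KO and 64.2% in H1 WT cells, so single regions ranked well above these medians. The median over all regions around the 9 genes, shared ones included, scored above 54.4% in Ubc9-depleted, 47.6% in Ubc9-control, 53.2% in H1 triple-KO and 41.2% in H1 WT cells. Their median width was 476 bp in Ubc9-depleted and 437 bp in Ubc9-control cells, where the whole lists had 431 bp in Ubc9-depleted and 367 bp in Ubc9-control cells. It was 315 bp in H1 triple-KO and 294 bp in H1 WT cells, where the whole lists had 259 bp in H1 triple-KO and 273 bp in H1 WT cells. By gene, the difference in unshared regions in the Ubc9 pair ran from 3 against 1 at Tubb3 (Ubc9-depleted against Ubc9-control) to 0 against 3 at Pax6, and at Zic1, Neurog2 and Pou3f2 the counts were equal. The difference between the H1 lists ran from 4 against 0 at Nes (H1 triple-KO against H1 WT) to 0 against 4 at Tubb3, and at Olig2 and Pou3f2 the counts were equal. The 9 genes did not move one way in either pair.

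**Figure D3:**
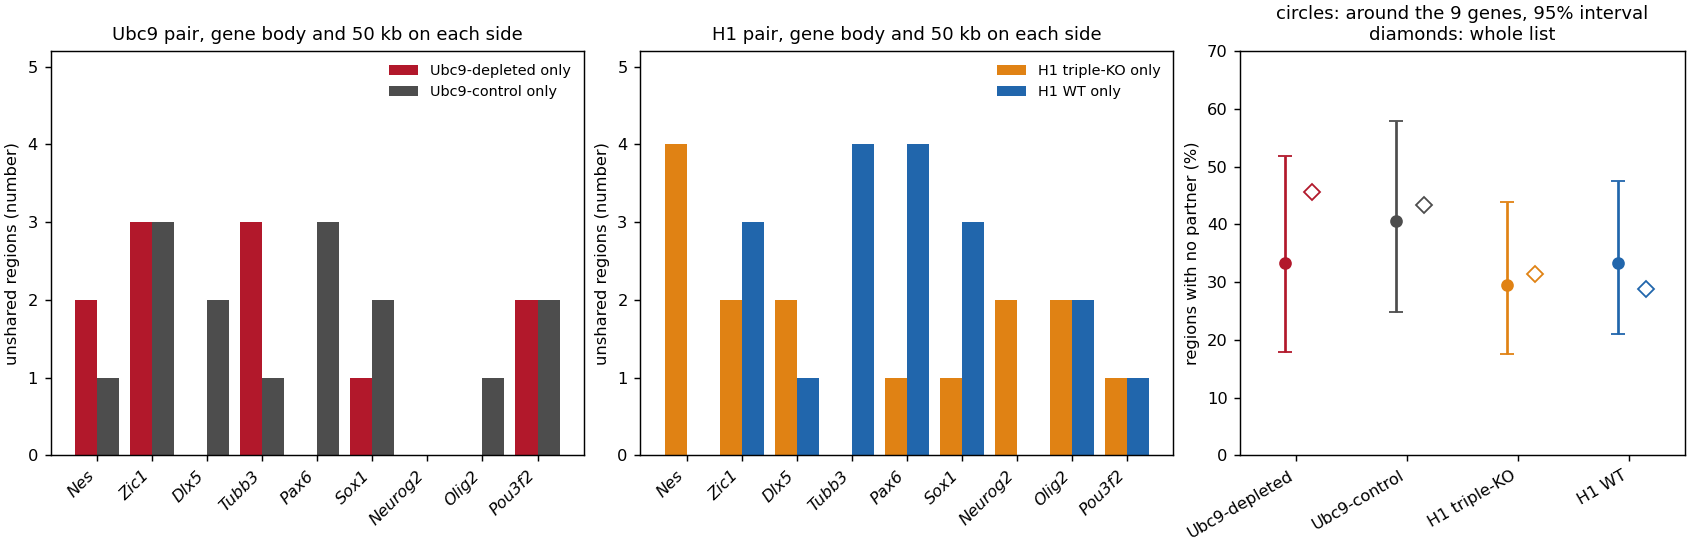
Number of unshared regions in the gene body and 50 kb on each side of each gene, in the Ubc9 pair (left) and the H1 pair (middle), and the percent of regions with no partner around the 9 genes as circles with exact 95% intervals beside the whole list as diamonds (right). For Nes the H1 triple-KO bar reaches 4 against 0 in H1 WT cells, for Tubb3 the H1 bars are 0 against 4, and every interval at right spans its diamond.

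The balance of unshared regions in the H1 pair differed by chromosome, and 5 of the 9 genes lie on the chromosomes that stood apart. The ratio of H1 triple-KO-only to H1 WT-only regions was 3.19 on chromosome 3 (Nes, Neurog2), 0.499 on chromosome 6 (Dlx5) and 0.386 on chromosome 8 (Tubb3, Sox1), with a median of 1.14 over autosomes. In the 10 Mb around each gene the counts, H1 triple-KO against H1 WT, were 197 against 42 at Nes (ratio 4.69), 139 against 47 at Neurog2 (2.96), 51 against 138 at Tubb3 (0.370), 50 against 65 at Sox1 (0.769) and 67 against 66 at Dlx5 (1.02). The signs at Nes, Neurog2, Tubb3 and Sox1 were those of the surrounding 10 Mb, and their differences cannot be told apart from it. Around Dlx5, near the start of chromosome 6, the 10 Mb were in balance although the chromosome was not. Away from these chromosomes the ratio was 1.10 at Zic1, 1.07 at Pax6, 1.24 at Pou3f2 and 2.16 at Olig2. Without the 5 genes, 1 of 4 (Zic1) had a gene-end region in H1 triple-KO cells only and 0 in H1 WT cells only. In the Ubc9 pair the ratio over 10 Mb, Ubc9-depleted-only to Ubc9-control-only, ran from 0.472 at Pax6 to 2.45 at Dlx5, where Dlx5 itself had 0 against 2 unshared regions.

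**Figure D4:**
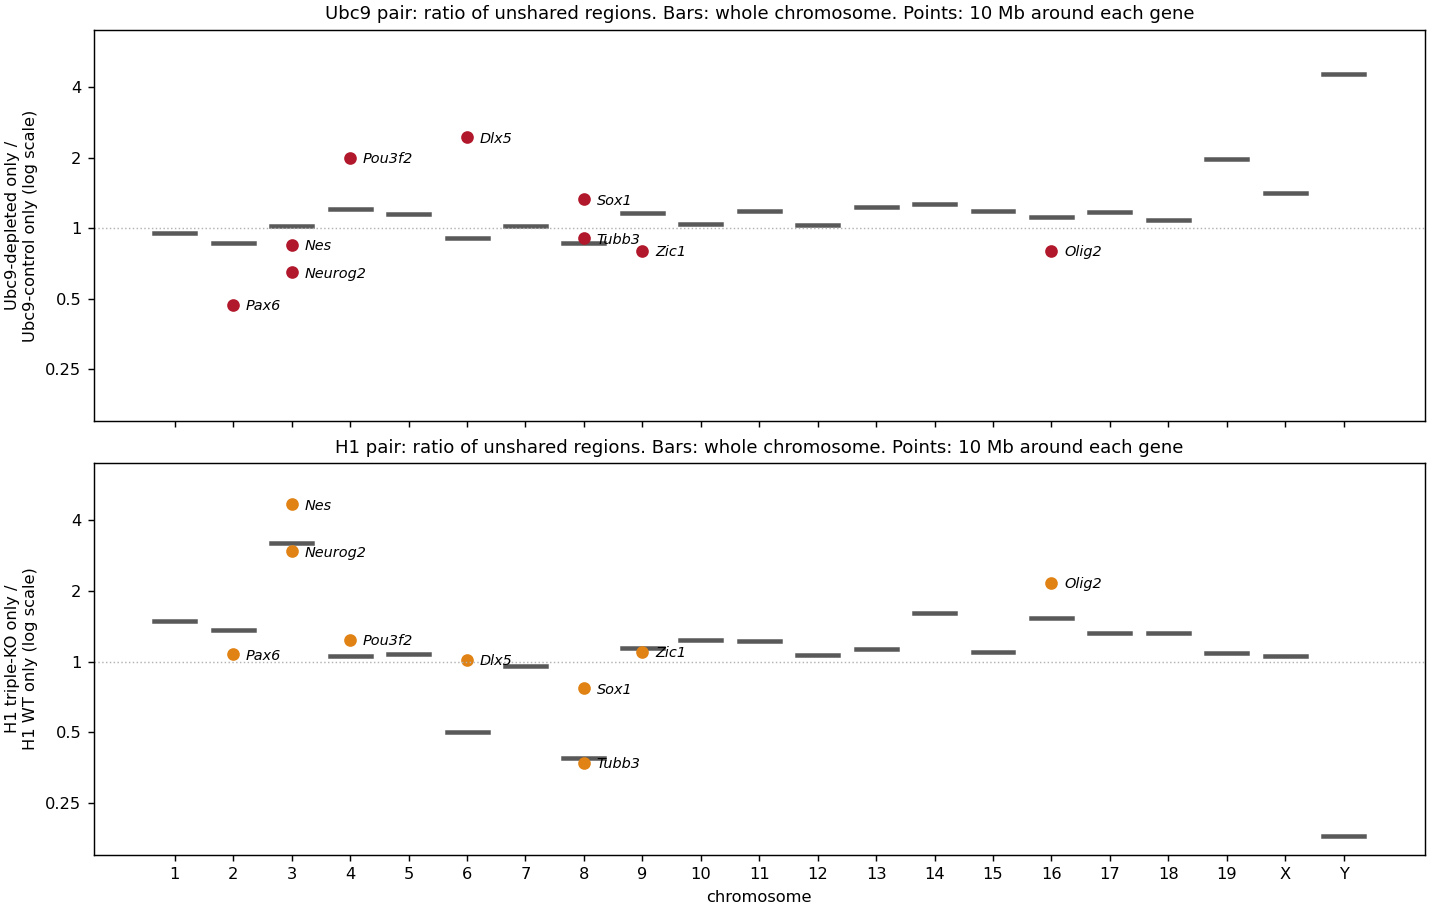
Ratio of unshared regions, Ubc9-depleted only to Ubc9-control only (top) and H1 triple-KO only to H1 WT only (bottom), on a log scale. Bars give whole chromosomes and points the 10 Mb around each neural lineage gene. In the H1 pair Nes (4.69) and Neurog2 (2.96) lie high with chromosome 3 (3.19), Tubb3 (0.370) lies low with chromosome 8 (0.386), and Dlx5 (1.02) lies apart from chromosome 6 (0.499).

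Across the 4 lists together, the regions around the 9 genes merged into 71 sites. Of these, 20 (28.2%) were in all 4 lists, against 21.8% of 94652 sites in the genome. Sites of Ubc9-depleted cells alone numbered 6 (8.45%, exact 95% interval 3.16 to 17.5%), against 19.7% in the genome, which lies outside the interval. This combination was picked out of 15 after its value was seen, and sites around 1 gene are not independent of each other. The 71 sites all lie in or near genes, while the genome sites lie at any distance from genes, so this background is not matched. Sites in the Ubc9-depleted and H1 triple-KO lists and in neither control numbered 2 (2.82%), the starts of Nes and Zic1, against 1.44% in the genome. Both genes were chosen with these differences already known, so the share in the genome is no test of this count. Sites in both control lists and neither perturbed list numbered 4 (5.63%), against 3.68%. The sharing of sites across pairs is a description, since the lists of the 2 pairs may not have been made alike.

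A wider set of 66 neural genes, none of them among the 9, was counted in the same way, with lists of neural stem cell genes, proneural factors, patterning factors, structural genes of neurons and genes of glia. In the Ubc9 pair 4 of 66 (6.06%) had a gene-end region in Ubc9-depleted cells only and 2 (3.03%) in Ubc9-control cells only, near the shares over all genes of 5.29% in Ubc9-depleted and 4.02% in Ubc9-control cells only. Those in Ubc9-depleted cells include the neural adhesion molecule Ncam1 (154.5), the proneural factor Insm1 (148.5) and Zic4, by the region it shares with Zic1. Those in Ubc9-control cells include the POU factor gene Pou3f4 (117.3). Between the H1 lists 11 of 66 (16.7%) had one in H1 triple-KO cells only and 3 (4.55%) in H1 WT cells only, where over all genes it was 4.45% in H1 triple-KO and 4.78% in H1 WT cells only. Counted among genes without a region in the other list, these were 11 of 32 (34.4%) in H1 triple-KO cells, against 9.21% of 10562 genes, and 3 of 24 (12.5%) in H1 WT cells, against 9.84% of 10635 genes. The 11 in H1 triple-KO cells include Zic4, by the region it shares with Zic1 (71.0), so their count is not wholly separate from that of the 9 genes. Some of the wider genes were already known to differ when the lists were drawn up, so the count is a description. In the wider window of the gene and 50 kb on each side, the Ubc9 pair leaned opposite to the gene ends. The H1 pair leaned the same way as at the gene ends, but less strongly. In these sums a region counts once for every gene whose window it overlaps. Summed over the 66 genes, 77 regions were in Ubc9-depleted and 106 in Ubc9-control cells only, with more of the Ubc9-depleted kind at 22 genes and more of the Ubc9-control kind at 34. In the H1 pair 103 were in H1 triple-KO and 95 in H1 WT cells only, and the median difference per gene was 0. More were of the H1 triple-KO kind at 28 genes and of the H1 WT kind at 20, with equal counts at 18. Over all 21887 protein-coding genes, with regions near several genes counted repeatedly, the sums were 30402 in Ubc9-depleted and 32863 in Ubc9-control cells only. Over all genes in the H1 pair, the sums were 32043 in H1 triple-KO and 27469 in H1 WT cells only. The sums over all genes thus leaned the same way as those over the 66 genes in each pair. With each region of the whole lists counted once, 22218 were unshared in Ubc9-depleted and 20276 in Ubc9-control cells, the opposite lean. In the H1 lists 18204 were unshared in H1 triple-KO and 15981 in H1 WT cells.

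By list, patterning factors made up 6 of the 11 and 1 of the 3, out of 27. The patterning genes with a region in H1 triple-KO cells only include Pou3f1 (150.1), which is also a gene of the primed state, Tfap2a (123.3), Pou3f4 (118.5) and Sox10 (72.8), a neural crest factor. Of the proneural list 2 of 8 had one in H1 triple-KO cells only, among them Myt1 (70.3), and 0 in H1 WT cells only. The receptor gene Notch1 (118.7), which keeps progenitors dividing, and the neurofilament gene Nefl (65.5) also had one in H1 triple-KO cells only. In H1 WT cells only the genes were Msi1 (67.6), Dlx2 (64.0) and Mbp (67.2). The named regions of Tfap2a, Notch1 and Dlx2 lay nearest the 3′ end of the gene, and those of Pou3f4 and Myt1 nearest the start. For Pou3f1, Sox10, Nefl, Msi1 and Mbp it was not known which end is the start. With a score of at least 100 required, 5 of 66 had a gene-end region in H1 triple-KO cells only and 0 in H1 WT cells only. Among genes without a region in the other list these were 5 of 32 (15.6%) in H1 triple-KO cells, against 4.54% over all genes, and 0 of 24 in H1 WT cells, against 4.40%. At the start alone, for the 44 genes of known strand, 5 had a region in H1 triple-KO cells only and 0 in H1 WT cells only, where the shares over all genes were 3.7% in H1 triple-KO and 4.38% in H1 WT cells only. None of the 11 lies on chromosome 3, 6 or 8. Pou3f4 had a region in Ubc9-control cells only in one pair and in H1 triple-KO cells only in the other.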

How the data were processed

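ATAC-seq of 8 mouse embryonic stem cell samples was used, in 4 groups of 2 replicates. Per the submitters' processing notes, the authors worked with the build mm10, and the tools named are MACS 1.4.2-1, CASAVA 1.8.2, Picard and Bowtie2; their settings, any shift of read positions for the transposase and the way replicates were combined are not given in the sources used here. The deposited files hold the coordinates and the authors' score of each region, and 1 list per group was deposited from both replicates. That the score is the caller's log10-scaled p-value is an inference from its lowest values. It is less certain for the Ubc9 lists, whose scores carry more decimals.

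Regions were read with Python 3.11.15, numpy 2.4.6 and pandas 2.3.3, intervals came from scipy 1.17.1 and figures from matplotlib 3.10.9. Genes and promoters came from RefSeq tables of GRCm38.p6; exons and introns were not used here. Overlap needed 1 bp, windows were 50 kb around genes and 1000 bp at gene ends, and coordinates are 1-based. Overlap and window steps were tested on simulated data with 0 disagreements. No columns were left unmapped. The members and gene lists were chosen with earlier results of these data known. All 9 members are named, with regions at gene ends or among the 2 highest-scoring unshared ones of a list given with their scores; of the wider lists, genes with a gene-end region in 1 list of a pair are named, at most 4 per list and pair by score, and some genes that this rule picks are not reported. Alternatives were the overlap rule, the score threshold, equal list lengths, window sizes, the gene start alone and the leaving out of chromosomes 3, 6 and 8.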

Additional observations from a re-analysis of the deposited data

Results flagged for a closer look

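At 6 sites around these genes the pairs went opposite ways: the site was in 1 list of each pair, in the perturbed list of one pair and the control list of the other. None of these differences was tested, since each group has 1 list. At Tubb3 both sites of the start were of this kind, with scores of 139.39 in Ubc9-depleted and 87.35 in H1 WT cells for the first and 69.58 in Ubc9-depleted and 58.11 in H1 WT cells for the second. The other 4 were in Ubc9-control and H1 triple-KO cells. The site inside Pax6 (6252 bp after the start) scored 259.63 in H1 triple-KO and 106.515 in Ubc9-control cells. The site at Crabp2 near Nes scored 138.28 in H1 triple-KO and 108.195 in Ubc9-control cells. The site in Zic4 near Zic1 scored 122.25 in H1 triple-KO and 93.15 in Ubc9-control cells, and the site before Olig2 87 in H1 triple-KO and 68.24 in Ubc9-control cells. In the genome, sites of Ubc9-control and H1 triple-KO cells alone made up 2.66% of all sites and those of Ubc9-depleted and H1 WT cells alone 0.954%.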

How the results depend on the processing

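Of 64 alternative values, 49 stayed close to the value given above, within its binomial interval or within 1.5 times of a count, and 15 moved. Without chromosomes 3, 6 and 8 the share of unshared regions was 60% (9 of 15) in Ubc9-control and 47.6% (10 of 21) in H1 WT cells. The gene-end counts were then 1 of 4 members in Ubc9-depleted only, 1 in H1 triple-KO only and 0 in H1 WT only. With a score of at least 100 the share in H1 triple-KO cells was 17.1% (6 of 35). The gene-end counts at that score were 1 in Ubc9-depleted only and 1 in H1 triple-KO only. Whole-list shares under these restrictions are not given here, so the moved shares have no background beside them. Unrestricted, the whole-list shares were 43.3% in Ubc9-control, 28.8% in H1 WT and 31.4% in H1 triple-KO cells. Windows of 2500 bp gave 2 members in H1 WT only. Of the wider neural genes, for which the alternatives were chosen after seeing the data, a score of at least 100 gave 5 in H1 triple-KO only and 0 in H1 WT only, and the start alone gave 1 in Ubc9-depleted only, 1 in Ubc9-control only, 5 in H1 triple-KO only and 0 in H1 WT only. Requiring 50% overlap, run for the 4 shares of unshared regions alone, moved none of them, and equal numbers of top-scoring regions moved none of the shares or gene-end counts. No paired analysis was possible because each list pools both replicates, and for the same reason no replicate could be left out. Since the read depth is unknown, a region in 1 list only may be a region just under the threshold of the other.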
